A study of Mus musculus with 2 samples.

Results

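The 27 genes described here are those of cholesterol synthesis and of its control, taken by name from the deposited tables, and all 27 were found among the 29809 genes of the 2 libraries. They comprise 8 genes of the mevalonate arm, 12 of the sterol arm, 5 that control the pathway and 2 of sterol transport and storage. Single-cell RNA was measured by Drop-seq, in which droplets pair cells with barcoded beads, in the arcuate nucleus and median eminence, the base of the hypothalamus that takes part in the control of feeding and hormone release. One library came from 5 pooled adult CD-1 mice aged 7-8 weeks with genotype Irx3/5+/- (title "Irx3/5dHet"), called the double heterozygote or dHet here, in which the Iroquois transcription factors Irx3 and Irx5 each have 1 altered allele. The other came from 7 pooled wild type (WT) CD-1 mice of the same age. Sex and treatment are not given in the labels, and nothing maps cells to mice, so each genotype is 1 sample and no difference has a replicate check. Ranges in brackets are exact 95% intervals that cover counting error only, and no p-values are given.

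Cholesterol is built from acetyl-CoA. The mevalonate arm leads to farnesyl and geranylgeranyl diphosphate, which also serve the prenylation of proteins, and the sterol arm joins farnesyl units to squalene, closes the ring to lanosterol and trims it to cholesterol. SREBP transcription factors are held in the endoplasmic reticulum by SCAP and INSIG proteins while sterol is plentiful, and are carried on, cut and sent to the nucleus when it is scarce. The brain makes its own cholesterol because lipoproteins of the blood hardly cross the blood-brain barrier, and most of that cholesterol lies in the myelin that oligodendrocytes wrap around axons.

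The promoters of 4 members on which the results turn are printed because SREBP works through letters near the start of its target genes. They are Hmgcs1, Cyp51 and Msmo1, 3 enzyme genes that were high in oligodendrocytes, and Srebf1, a control gene that was high in tanycytes. Each window holds the 250 bases before and 50 bases after a RefSeq start site in GRCm38.p6, 5′ to 3′ on the gene's strand. Capitals mark the sterol response letters TCACNCCAC and the NF-Y letters CCAAT, on either strand.
Hmgcs1, chr13:119690101-119690400, plus strand: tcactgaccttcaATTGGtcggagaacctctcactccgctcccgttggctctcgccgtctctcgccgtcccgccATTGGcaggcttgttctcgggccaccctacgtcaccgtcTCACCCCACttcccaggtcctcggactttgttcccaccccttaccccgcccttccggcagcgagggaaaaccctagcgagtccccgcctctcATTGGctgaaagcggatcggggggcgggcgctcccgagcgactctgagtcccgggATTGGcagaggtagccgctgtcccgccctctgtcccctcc
Cyp51, chr5:4104648-4104947, minus strand: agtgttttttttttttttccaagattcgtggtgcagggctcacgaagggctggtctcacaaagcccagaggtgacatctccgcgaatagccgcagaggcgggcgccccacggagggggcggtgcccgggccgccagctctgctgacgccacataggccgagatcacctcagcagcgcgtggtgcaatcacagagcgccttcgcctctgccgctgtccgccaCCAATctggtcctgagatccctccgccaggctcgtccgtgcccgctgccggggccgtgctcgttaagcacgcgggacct
Msmo1, chr8:64733529-64733828, minus strand: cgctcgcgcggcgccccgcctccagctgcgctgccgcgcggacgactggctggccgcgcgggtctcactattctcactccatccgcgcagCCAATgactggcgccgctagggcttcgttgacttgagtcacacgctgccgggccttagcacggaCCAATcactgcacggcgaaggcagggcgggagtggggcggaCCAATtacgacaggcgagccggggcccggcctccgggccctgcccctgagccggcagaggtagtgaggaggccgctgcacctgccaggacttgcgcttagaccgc
Srebf1, chr11:60222532-60222831, minus strand: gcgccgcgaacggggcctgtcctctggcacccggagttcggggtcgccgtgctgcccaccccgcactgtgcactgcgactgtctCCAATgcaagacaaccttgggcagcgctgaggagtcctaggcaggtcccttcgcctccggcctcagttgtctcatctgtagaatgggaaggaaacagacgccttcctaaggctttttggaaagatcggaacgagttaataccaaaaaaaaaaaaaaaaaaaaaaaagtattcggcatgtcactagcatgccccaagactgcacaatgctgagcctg
The start site of Hmgcs1 lies 28 bases before the outermost GENCODE start, and those of Cyp51 and Msmo1 lie 49 and 214 bases inside it. The Srebf1 window is the outermost of 3 for that gene, and those 1954 and 12110 bases further in are not printed. RefSeq windows were at hand for 23 of the 27 members, all but Fdps, Fdft1, Sqle and Stard4. TCACNCCAC was found in the windows of 1 of the 23, Hmgcs1, as TCACCCCAC beginning 137 bases before the start and overlapping no CCAAT. Of 17492 coding genes, 1.41% had TCACNCCAC in any of their windows. CCAAT was found for 21 of the 23, all but Acat2 and Scap, against 42.3% of coding genes. The Sp1 letters GGGCGG, not marked above, were also found for 21 of the 23, against 49.2% of coding genes. Several members have more than 1 window, and of their 31 windows 71.0% held CCAAT and 80.6% held GGGCGG, against 37.4% and 35.6% of all 32817 windows. A match is a description of letters and not a bound site. Only exact letters were searched, so sites of other spelling were not counted. The lack of a match does not show the lack of a site.

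The double heterozygote library had 2850978 UMIs (unique molecular identifiers, each standing for 1 captured RNA molecule) in 1480 used cells, and the wild type library had 4250724 UMIs in 2390. The median per used cell was 1156.5 UMIs in dHet and 1274 UMIs in WT. Irx3 had 15 UMIs in the double heterozygote library and 30 in wild type, or 5.26 CPM (2.94 to 8.68) against 7.06 CPM (4.76 to 10.1). Irx5 had 6 UMIs in dHet and 16 in WT, so that the genotype could not be checked at this depth. The libraries shared 3 cell barcodes. Clustering without the 27 genes gave 21 clusters, of which 20 fell into 11 classes called by the cell type whose marker list they resembled. The oligodendrocyte cluster passed 10 of 11 markers, both tanycyte clusters 8 of 12, both ependymal clusters 9 of 9 and the neuron clusters 11 to 14 of 14. No cluster was called astrocyte. The 9 astrocyte markers summed to 874 CPM in dHet and 499 CPM in WT tanycytes. They summed to 894 CPM in dHet and 897 CPM in WT ependymal cells, and to 35.6 CPM in dHet and 40.9 CPM in WT neurons. The part of astrocytes in the tanycyte and ependymal levels was not tested. Doublets were called in 0.489% of 3889 cells, far under the 5% that the caller was told to assume, so some may remain.

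The summed level of the 27 genes was highest in oligodendrocytes and lowest among well-counted classes in microglia or macrophages, in both libraries. Levels are CPM, the UMIs of the genes scaled to counts per 1000000 UMIs of the class. They were 2597 CPM (2362 to 2850) in the 122 double heterozygote and 2086 CPM (1955 to 2225) in the 261 wild type oligodendrocytes. Ependymal cells, which line the ventricle with cilia, had 1412 CPM (1227 to 1616) in dHet and 1205 CPM (1082 to 1338) in WT. Tanycytes, the elongated glia of the ventricle floor, had 1281 CPM (1119 to 1459) in dHet and 1227 CPM (1140 to 1320) in WT. These 2 classes overlapped in their intervals within each library. Neurons had 1149 CPM (1101 to 1198) in dHet and 1112 CPM (1066 to 1160) in WT. Fibroblasts had 1055 CPM (888 to 1245) in dHet and 709 CPM (593 to 841) in WT, and microglia or macrophages 514 CPM (333 to 759) in dHet and 519 CPM (390 to 677) in WT. Mural cells, another of the classes, had 749 CPM (524 to 1037) in dHet and 665 CPM (495 to 874) in WT. Their intervals overlapped those of microglia or macrophages in both libraries, so the lowest place was not set apart by counting error. Oligodendrocytes thus stood clear of every class but the newly formed oligodendrocytes of the double heterozygote, whose 24 UMIs gave 1899 CPM (1217 to 2826). Over the 9 classes other than endothelial cells and newly formed oligodendrocytes, which held few UMIs, the order of the summed levels had a Spearman rho of 0.93 between libraries, a description of 9 points that share their clustering.

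**Figure D1:**
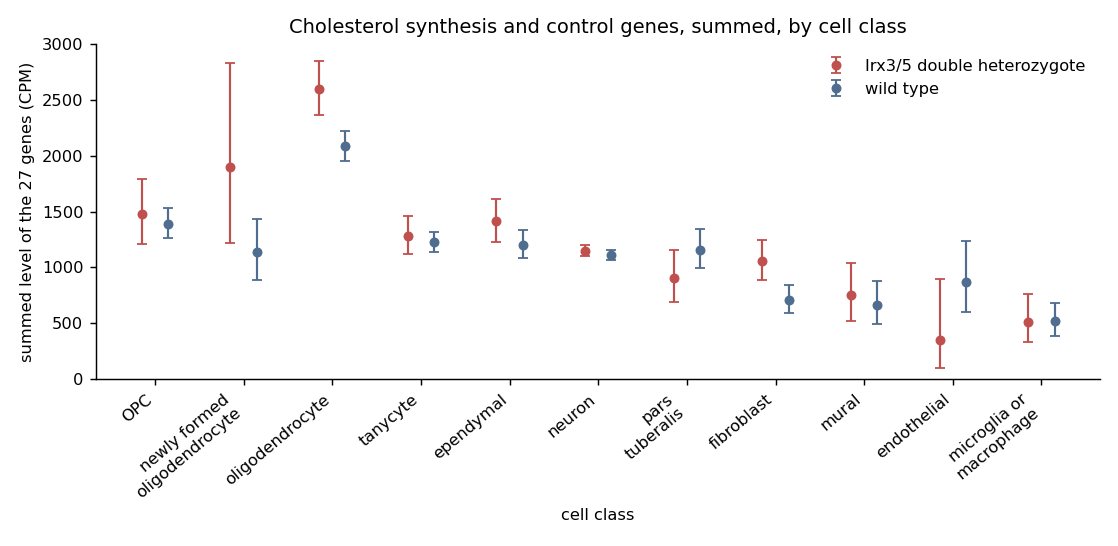
Summed level of the 27 genes in CPM (vertical axis) in 11 cell classes, with the double heterozygote library to the left of wild type in each class. Points are summed UMIs in CPM and bars exact 95% Poisson intervals; oligodendrocytes are highest at 2597 CPM in dHet and 2086 CPM in WT, and microglia or macrophages lie at 514 CPM in dHet and 519 CPM in WT.

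In oligodendrocytes, the mevalonate arm stood at 1010 CPM in the double heterozygote and 766 CPM in wild type, which was 2.57-fold (2.18 to 3.03) in dHet and 2.23-fold (1.98 to 2.52) in WT relative to all other cells. Hmgcs1, the synthase that makes HMG-CoA, had 519 CPM (89 UMIs) in double heterozygote and 433 CPM (194 UMIs) in wild type oligodendrocytes, against 108 CPM in dHet and 97.0 CPM in WT other cells. That was 4.82-fold (3.75 to 6.13) in dHet and 4.47-fold (3.73 to 5.33) in WT relative to the other cells, so both libraries gave nearly the same ratio. Fdps, which makes farnesyl diphosphate, had 181 CPM (31 UMIs, 7 of them in 1 cell) in double heterozygote and 112 CPM (50 UMIs) in wild type oligodendrocytes, against 52.6 CPM in dHet and 41.5 CPM in WT other cells. That was 3.44-fold (2.25 to 5.10) in dHet and 2.69-fold (1.92 to 3.72) in WT. In wild type the early steps had lower ratios than Hmgcs1 and Fdps. Acat2, the thiolase that opens the route, was 2.18-fold in dHet and 1.80-fold in WT relative to the other cells, the kinase Mvk 3.51-fold in dHet and 1.92-fold in WT, and the decarboxylase Mvd 4.27-fold in dHet and 1.60-fold in WT. The second kinase of the arm, Pmvk, stood near the level of the other cells at 0.87-fold in dHet and 0.99-fold in WT. Ggps1, which makes geranylgeranyl diphosphate and so leads away from cholesterol, was the arm's lowest member relative to other cells, with 40.9 CPM in double heterozygote and 40.2 CPM in wild type oligodendrocytes against 76.1 CPM in dHet and 71.5 CPM in WT other cells. Its ratios were 0.54 (0.21 to 1.13) in dHet and 0.56 (0.33 to 0.91) in WT. Idi1, the isomerase between Mvd and Fdps, had 15 UMIs in dHet and 16 UMIs in WT over all cells, too few to place.

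The sterol arm was 2.78-fold (2.40 to 3.22) in dHet and 2.41-fold (2.17 to 2.68) in WT oligodendrocytes relative to all other cells, with 1284 CPM in the double heterozygote and 1005 CPM in wild type. Msmo1, the C4-methyl sterol oxidase, had 391 CPM (67 UMIs) in double heterozygote and 230 CPM (103 UMIs) in wild type oligodendrocytes, against 102 CPM in dHet and 97.6 CPM in WT other cells. Its ratios were 3.85 (2.90 to 5.05) in dHet and 2.36 (1.88 to 2.94) in WT. Cyp51, the lanosterol demethylase, had 204 CPM (35 UMIs) in dHet and 165 CPM (74 UMIs) in WT, against 70.9 CPM in dHet and 47.3 CPM in WT other cells. This was 2.88-fold (1.95 to 4.15) in dHet and 3.49-fold (2.63 to 4.60) in WT. Dhcr7, the last reductase of one branch, was the enzyme with the steepest wild type ratio after Hmgcs1, with 75.9 CPM in double heterozygote and 91.6 CPM in wild type oligodendrocytes against 19.0 CPM in dHet and 20.8 CPM in WT elsewhere. That was 3.99-fold (1.99 to 7.44) in dHet and 4.41-fold (2.95 to 6.51) in WT. Lss, which closes the sterol ring, was 4.08-fold in dHet and 2.65-fold in WT relative to the other cells, Sc5d, the desaturase, 2.77-fold in dHet and 2.65-fold in WT, and Ebp, the isomerase, 2.20-fold in dHet and 3.26-fold in WT. Lbr, a nuclear envelope protein with sterol reductase activity, was 6.26-fold (2.38 to 14.8) in dHet and 2.94-fold (1.62 to 5.11) in WT, on only 8 UMIs in dHet and 18 UMIs in WT oligodendrocytes. Its relative Tm7sf2, which catalyses the same step, had 1 UMI in dHet and 5 UMIs in WT there. Both were sparse. Fdft1, squalene synthase, was 1.82-fold in dHet and 2.22-fold in WT relative to the other cells. Squalene epoxidase, Sqle, was 1.97-fold (1.11 to 3.27) in the double heterozygote and 0.85-fold (0.51 to 1.35) in wild type, and so lay on different sides of the other cells. Nsdhl and Hsd17b7, which act with Msmo1 on the C4 methyl groups, were at 1.15-fold and 2.09-fold in the double heterozygote and 1.59-fold and 1.32-fold in wild type, with 4 to 14 UMIs each.

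Of the 26 members with at least 20 UMIs in each library (all but Idi1), 10 were at least 2-fold higher in oligodendrocytes than in all other cells in both libraries. They were Hmgcs1, Fdps, Lss, Cyp51, Lbr, Msmo1, Ebp, Sc5d, Dhcr7 and Insig1. The same held for 6.42% of all 12617 genes so measured. The members had a median log2 ratio of 1.13 in the double heterozygote and 0.76 in wild type, while all genes had -0.89 in dHet and -0.76 in WT. Insig2 and Soat1 were at least 2-fold lower in both, as were 33.9% of all genes. By arm, 7 of 12 sterol genes and 2 of 7 mevalonate genes were at least 2-fold higher, against 6.42% of all genes. Above the other cells in both libraries were 10 of 12 and 5 of 7, while the median of all genes lay below the other cells in both. The stress list of dissociation, 10 early response and heat shock genes, was at 1.02-fold in dHet and 1.14-fold in WT oligodendrocytes relative to the other cells.

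Among the control genes, the 2 INSIG genes, whose proteins hold SCAP back when sterol is plentiful, lay in opposite classes. Insig1 had 128 CPM (22 UMIs) in double heterozygote and 112 CPM (50 UMIs) in wild type oligodendrocytes, against 34.0 CPM in dHet and 42.6 CPM in WT other cells, a ratio of 3.78 (2.26 to 6.08) in dHet and 2.62 (1.87 to 3.62) in WT. Insig2 had 46.7 CPM (8 UMIs) in double heterozygote and 26.8 CPM (12 UMIs) in wild type oligodendrocytes, against 114 CPM in dHet and 108 CPM in WT other cells. This was 0.41-fold (0.17 to 0.82) in dHet and 0.25-fold (0.13 to 0.44) in WT. The intervals of the 2 genes lie on either side of 1 in both libraries. Srebf2, whose product drives most synthesis genes, was 2.61-fold (1.29 to 4.84) in the double heterozygote and 1.59-fold (0.99 to 2.44) in wild type. Srebf1, whose product is tied more to fatty acid genes, was 0.65-fold (0.21 to 1.55) in dHet and 0.88-fold (0.55 to 1.34) in WT, and Scap 0.61-fold (0.12 to 1.85) in dHet and 1.28-fold (0.77 to 2.04) in WT, with 1 inside every one of these intervals. Soat1, which esterifies cholesterol for storage, had 0 UMIs in double heterozygote oligodendrocytes, where 3 UMIs would have been 17.5 CPM, and 1 UMI in wild type ones, against 22.4 CPM in dHet and 46.3 CPM in WT other cells. Stard4, a soluble sterol carrier, had 2 UMIs in dHet and 8 UMIs in WT there.

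**Figure D2:**
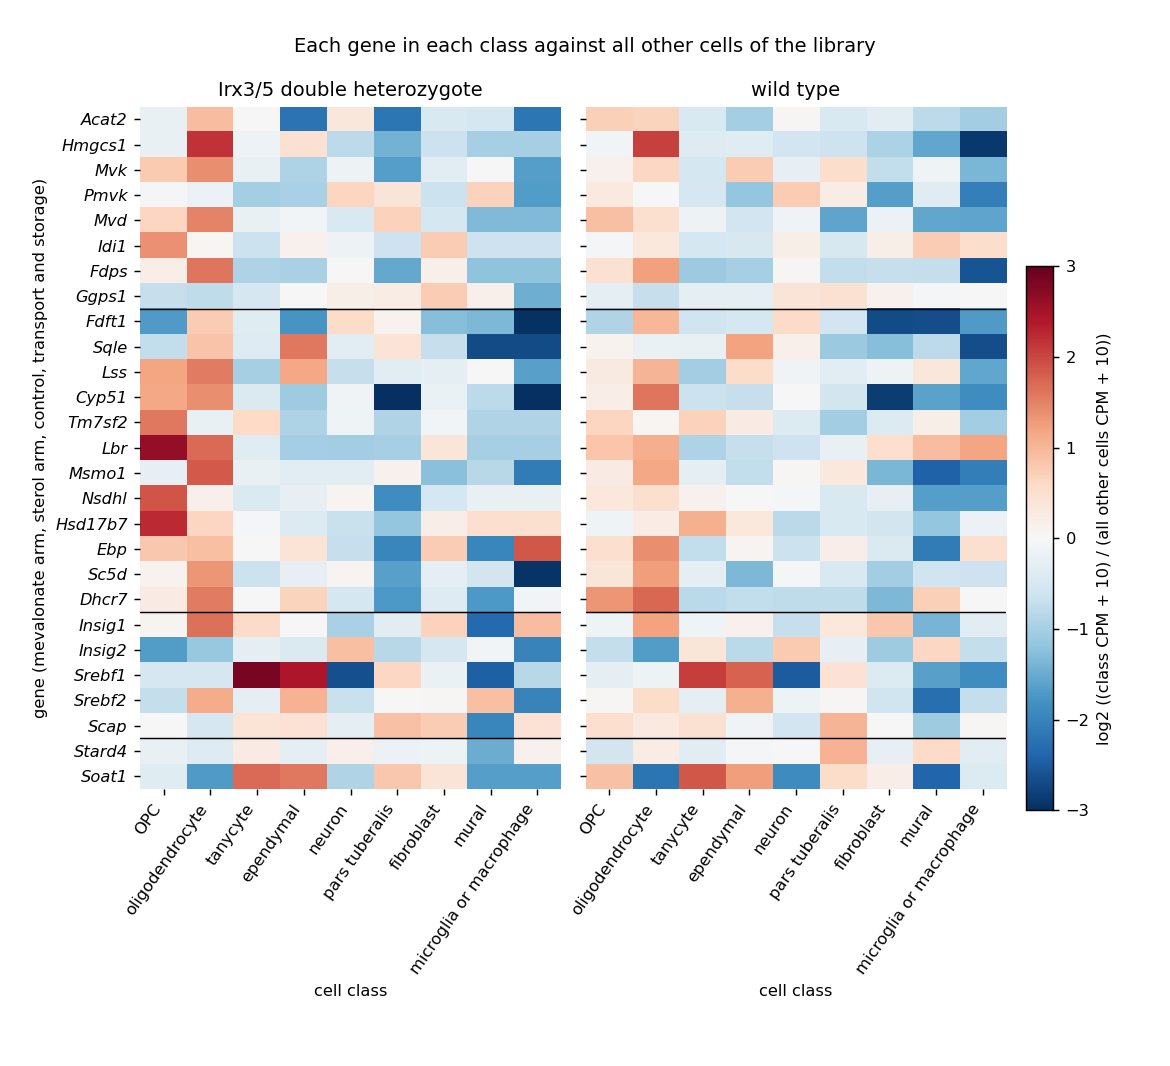
Colour map of the log2 ratio of each class over all other cells of its library, for the 27 genes (rows) in 9 classes (columns), double heterozygote panel on the left and wild type on the right, with 10 CPM added to both levels and colours capped at 3 either way. The oligodendrocyte column is high for Hmgcs1, Msmo1, Cyp51 and Dhcr7 and low for Insig2 and Soat1 in both panels, and Srebf1 is high in tanycytes and ependymal cells.

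The level per cell was also read as the share of cells with a UMI, after each cell had been thinned to 1000 UMIs. Hmgcs1 was found in 33.3% (23.1 to 44.9; 26 of 78 cells) of double heterozygote and 25.2% (18.7 to 32.5; 41 of 163 cells) of wild type oligodendrocytes. In neurons it was found in 7.56% (5.35 to 10.3; 36 of 476 cells) in dHet and 8.06% (5.87 to 10.7; 42 of 521 cells) in WT. Thinning left out 44 dHet and 98 WT shallower oligodendrocytes and 234 dHet and 303 WT neurons, and without it the shares were 33.6% in dHet and 29.5% in WT oligodendrocytes and 18.03% in dHet and 16.6% in WT neurons, whose cells are deeper. Thinned to 700 UMIs, the shares were 18.9% in dHet and 18.6% in WT oligodendrocytes. In neurons they were then 6.56% in dHet and 6.69% in WT. The oligodendrocyte share was the higher in each library in every one of these readings, while its size and the gap between libraries depended on the depth. No used class is known to lack Hmgcs1, so no share serves as its background.

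Along the oligodendrocyte lineage, the summed level was 1481 CPM (1212 to 1793), 1899 CPM (1217 to 2826) and 2597 CPM (2362 to 2850) in precursors, newly formed and mature oligodendrocytes of the double heterozygote. In wild type the same stages had 1392 CPM (1259 to 1535), 1139 CPM (889 to 1436) and 2086 CPM (1955 to 2225). The mature stage was the highest in both libraries, while the newly formed stage lay above the precursors in one and below them in the other, within overlapping intervals. That stage held 14 dHet and 20 WT cells, with a median of 548 UMIs in the double heterozygote and 2949 in wild type. Mature oligodendrocytes were 1.75-fold (1.41 to 2.19) in dHet and 1.5-fold (1.33 to 1.69) in WT relative to the precursors in the summed level. In the mevalonate arm the ratio was 2.31 (1.57 to 3.50) in the double heterozygote and 1.70 (1.38 to 2.09) in wild type, and in the sterol arm 1.47 (1.1 to 1.98) in dHet and 1.65 (1.39 to 1.98) in WT. All 7 members with at least 20 UMIs in each library (over both stages) were higher in the mature cells in both, against 31.4% of 2380 genes. Hmgcs1 had the steepest well-counted step, with 519 CPM in dHet and 433 CPM in WT mature oligodendrocytes against 113 CPM (8 UMIs) in dHet and 125 CPM (36 UMIs) in WT precursors. That was 4.60-fold (2.24 to 11.0) in dHet and 3.47-fold (2.42 to 5.10) in WT. In newly formed cells it had 554 CPM (7 UMIs) in dHet and 160 CPM (10 UMIs) in WT, so where the step falls differed between libraries. Msmo1 had 391 CPM in dHet and 230 CPM in WT mature cells against 98.7 CPM in dHet and 132 CPM in WT precursors, or 3.96-fold in dHet and 1.74-fold in WT. Cyp51 differed between libraries in precursors, at 183 CPM (13 UMIs) in the double heterozygote and 69.4 CPM (20 UMIs) in wild type, so that its step to mature cells was 1.11-fold in dHet and 2.38-fold in WT. Precursors also differed in the 6 pars tuberalis markers, which summed to 6490 CPM (460 UMIs) in the double heterozygote and 59.0 CPM (17 UMIs) in wild type, against 29.2 CPM in dHet and 29.0 CPM in WT mature cells. The part of pars tuberalis cells or RNA in the precursor levels was not tested. Soat1 lay the other way in wild type, with 1 UMI in mature cells and 23 UMIs (79.9 CPM) in precursors. The stress list stood at 4045 CPM in mature cells against 2807 CPM in precursors of the double heterozygote, and at 7215 against 1555 CPM in wild type. Its part in the difference between stages was not tested.

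**Figure D3:**
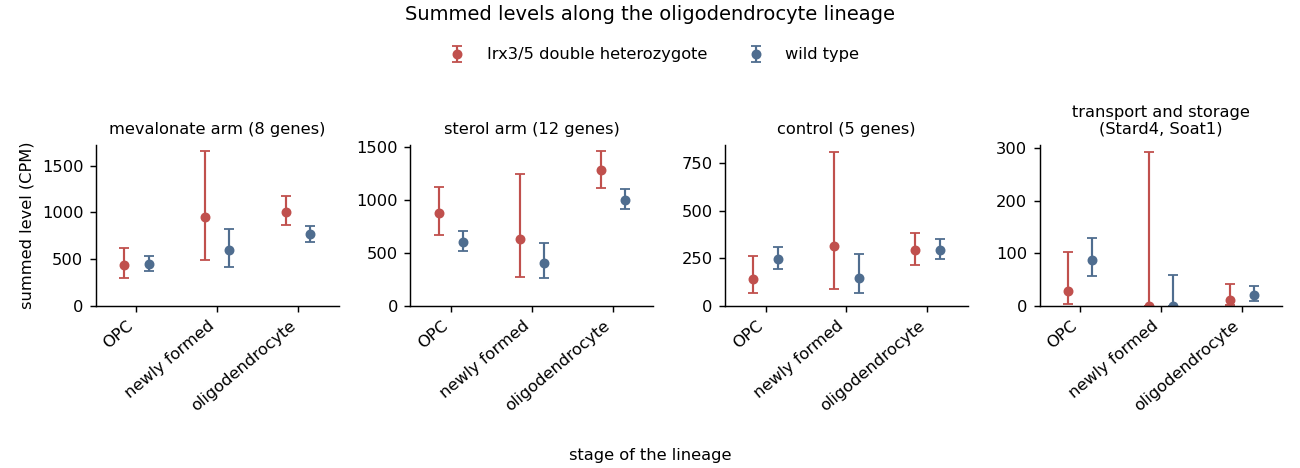
Summed CPM of the 4 roles (1 panel each: mevalonate arm, sterol arm, control, transport and storage) in precursors, newly formed and mature oligodendrocytes, for the double heterozygote and wild type libraries, with exact 95% Poisson intervals. The mevalonate arm reaches 1010 CPM in dHet and 766 CPM in WT and the sterol arm 1284 CPM in dHet and 1005 CPM in WT mature cells.

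In precursors, 2 members were at least 2-fold higher than in all other cells in both libraries, Lbr and Tm7sf2, against 7.18% of all genes, and Fdft1 was at least 2-fold lower, against 16.0%. Both of the higher genes were sparse. Lbr had 98.7 CPM (7 UMIs) in the double heterozygote and 34.7 CPM (10 UMIs) in wild type, and 4 of these 7 and 2 of these 10 UMIs came from the small dividing cluster. Tm7sf2 had 42.3 CPM (3 UMIs) in dHet and 20.8 CPM (6 UMIs) in WT.

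Tanycytes and ependymal cells differed from oligodendrocytes in which members were high. In tanycytes the control genes together stood at 485 CPM in the double heterozygote and 447 CPM in wild type, 2.06-fold (1.62 to 2.58) in dHet and 1.73-fold (1.51 to 1.99) in WT relative to the other cells, while the mevalonate arm was 0.68-fold in dHet and 0.67-fold in WT and the sterol arm 0.76-fold in dHet and 0.75-fold in WT. Srebf1 had 271 CPM (48 UMIs) in double heterozygote and 194 CPM (116 UMIs) in wild type tanycytes, against 29.2 CPM in dHet and 38.3 CPM in WT other cells. This was 9.28-fold (6.34 to 13.5) in dHet and 5.07-fold (3.93 to 6.53) in WT. Srebf1 gave 48 of the 86 control UMIs of dHet tanycytes and 116 of the 267 of WT ones. It was the only control gene at least 2-fold higher in both libraries, so the sum of the role rested largely on it. After thinning to 1000 UMIs, Srebf1 was found in 27.3% (17.0 to 39.6; 18 of 66 cells) of double heterozygote and 17.3% (12.7 to 22.7; 41 of 237 cells) of wild type tanycytes, and in 0.84% (0.23 to 2.14) of dHet and 0.96% (0.31 to 2.23) of WT neurons. Tanycytes were thus far above neurons in both libraries. Without thinning these shares were 23.8% in dHet and 22.1% in WT tanycytes and 2.68% in dHet and 1.94% in WT neurons, at median depths of 919 UMIs in dHet and 1415 UMIs in WT tanycytes and 1760.5 in dHet and 1569.5 in WT neurons. Soat1 had 79.0 CPM (14 UMIs) in dHet and 127 CPM (76 UMIs) in WT tanycytes, 4.59-fold in dHet and 4.60-fold in WT relative to the other cells. Together with Tm7sf2 (3 UMIs in dHet and 12 UMIs in WT) these were the 3 members at least 2-fold higher in both libraries, against 6.08% of all genes, and Fdps and Lss were the 2 at least 2-fold lower, against 15.5%. The median log2 ratio of the members was -0.32 in the double heterozygote and -0.35 in wild type, against -0.23 in dHet and -0.19 in WT over all genes. Tm7sf2 was below the other cells in the double heterozygote when only cells with at least 500 genes were used. The stress list in tanycytes was 3.55-fold in dHet and 2.95-fold in WT relative to the other cells, and its part in these levels was not tested.

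In ependymal cells, Srebf1 had 229 CPM (34 UMIs, 7 of them in 1 cell) in the double heterozygote and 195 CPM (57 UMIs) in wild type, 6.71-fold (4.39 to 10.1) in dHet and 3.88-fold (2.84 to 5.23) in WT relative to the other cells. Srebf2 was 2.46-fold in dHet and 2.41-fold in WT and Soat1 4.08-fold in dHet and 2.77-fold in WT. Sqle, which makes the first oxygenated intermediate of the sterol arm, was higher here than in any other of the 9 better-counted classes in both libraries, with 161 CPM (24 UMIs) in dHet and 120 CPM (35 UMIs) in WT. That was 3.41-fold (2.11 to 5.30) in dHet and 2.58-fold (1.74 to 3.72) in WT relative to the other cells. These 4 members were at least 2-fold higher in both libraries, against 9.24% of all genes, while Acat2, Pmvk, Fdps and Lbr were at least 2-fold lower, against 19.9%. One enzyme of the sterol arm was therefore high in a class in which the mevalonate arm, at 350 CPM in dHet and 257 CPM in WT, lay below its level in oligodendrocytes. The members' median log2 ratio was -0.32 in dHet and -0.24 in WT against -0.46 in dHet and -0.38 in WT over all genes, and the stress list was 1.44-fold in dHet and 1.47-fold in WT relative to the other cells.

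The 2 tanycyte clusters differed from each other. Cluster 3, whose leading genes were Cyr61, Gja1, Mlc1, Mia, Crym, Gpr50, Cfap126, Cldn10, Mgst1 and Sox9, had 96 double heterozygote and 279 wild type cells. Of these genes, Gja1, Mia, Cfap126 and Mlc1 were also among the 10 that led ependymal cluster 8. Cluster 10, led by Scn7a, Cldn10 and Cyr61, had 51 dHet and 83 WT cells. The 2 clusters together held 147 dHet and 362 WT cells and the ependymal clusters 105 dHet and 184 WT cells. With each library clustered alone, 50 dHet and 427 WT cells were named tanycytes and 204 dHet and 124 WT cells ependymal, so the line between the 2 classes depended on the clustering. Hmgcs1 had 228 CPM (20 UMIs) in dHet and 133 CPM (53 UMIs) in WT cells of cluster 3, against 11.2 CPM (1 UMI) in dHet and 40.01 CPM (8 UMIs) in WT cells of cluster 10. Its ratio in wild type was 3.34 (1.58 to 8.12), and in the double heterozygote it was 20.4 with an interval from 3.26 to 844, since the lower value is a single UMI. The sums of both arms were higher in cluster 3 as well. The mevalonate arm stood at 444 CPM in dHet and 327 CPM in WT cells of cluster 3, against 157 CPM in dHet and 160 CPM in WT cells of cluster 10. This was 2.84-fold (1.51 to 5.65) in dHet and 2.05-fold (1.38 to 3.11) in WT. The sterol arm stood at 615 CPM in dHet and 431 CPM in WT against 179 CPM in dHet and 255 CPM in WT. This was 3.44-fold (1.94 to 6.43) in dHet and 1.69-fold (1.23 to 2.36) in WT. The control genes lay the other way, at 387 CPM in dHet and 347 CPM in WT against 582 CPM in dHet and 645 CPM in WT. Srebf1 was at 216 CPM in dHet and 126 CPM in WT cells of cluster 3 and 324 CPM in dHet and 330 CPM in WT cells of cluster 10. Insig2 had 56.9 CPM in dHet and 98.2 CPM in WT against 123 CPM in dHet and 180 CPM in WT. The stress list was lower in cluster 3 in the double heterozygote (9266 against 15076 CPM) and higher in wild type (15909 against 12963 CPM), and its part in the difference between the clusters was not tested.

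**Figure D4:**
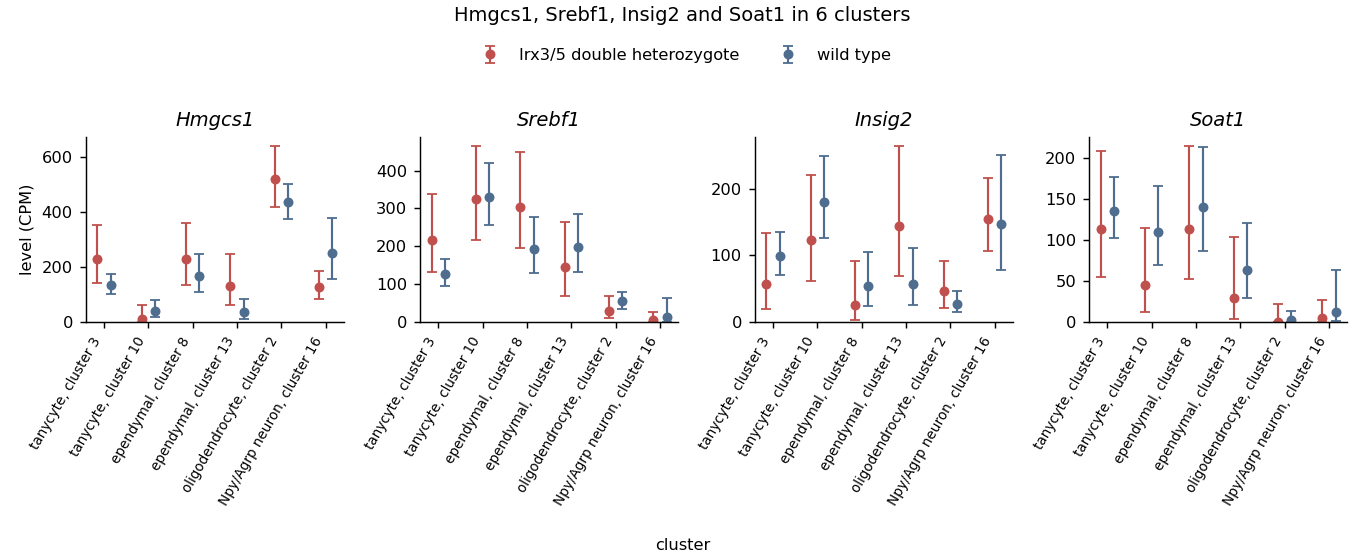
CPM of Hmgcs1, Srebf1, Insig2 and Soat1 in the 2 tanycyte clusters (3, led by Cyr61, and 10, led by Scn7a), the 2 ependymal clusters (8 and 13), the oligodendrocyte cluster (2) and the Npy and Agrp neuron cluster (16), double heterozygote left of wild type, with exact 95% Poisson intervals. Of the clusters plotted, Hmgcs1 is highest in oligodendrocytes at 519 CPM in dHet and 433 CPM in WT and Srebf1 in tanycyte cluster 10 at 324 CPM in dHet and 330 CPM in WT.

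Neurons, 710 double heterozygote and 824 wild type cells, were the largest class and stood slightly below the rest in the summed level, at 0.823-fold (0.77 to 0.88) in dHet and 0.865-fold (0.82 to 0.91) in WT. No member was at least 2-fold higher than in other cells in both libraries, against 12.8% of all genes, and 4 were at least 2-fold lower, Lbr, Hsd17b7, Srebf1 and Soat1, against 17.3%. Insig2 came closest to 2-fold higher, with 132 CPM (252 UMIs) in double heterozygote and 132 CPM (255 UMIs) in wild type neurons against 65.9 CPM in dHet and 72.4 CPM in WT other cells. That was 2.0-fold (1.51 to 2.69) in dHet and 1.82-fold (1.49 to 2.23) in WT. The lowest was Srebf1, with 9.95 CPM (19 UMIs) in dHet and 9.84 CPM (19 UMIs) in WT against 114 CPM in dHet and 102 CPM in WT other cells. Neurons therefore held the reverse of the tanycyte pattern for this gene. Pmvk, at 100 CPM in dHet and 93.2 CPM in WT, was 1.65-fold in dHet and 1.85-fold in WT relative to the other cells, Fdft1 1.56-fold in dHet and 1.61-fold in WT, and Ggps1 1.16-fold in dHet and 1.36-fold in WT. Hmgcs1, at 105 CPM (201 UMIs) in dHet and 102 CPM (197 UMIs) in WT, was 0.56-fold in dHet and 0.65-fold in WT, and Msmo1 had 109 CPM in dHet and 113 CPM in WT. Set directly against neurons, oligodendrocytes were higher in both libraries for 16 of the 23 members with at least 20 UMIs in each, against 20.7% of 10192 genes. The members' median log2 ratio in neurons over other cells was -0.36 in dHet and -0.17 in WT, against 0.095 in dHet and 0.073 in WT over all genes. The stress list in neurons was 0.19-fold in dHet and 0.27-fold in WT relative to the other cells.

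Among neuron clusters, the one led by Npy and Agrp, neuropeptides of the neurons that drive feeding, had the highest summed level in each library, with 1534 CPM in 43 double heterozygote and 1748 CPM in 13 wild type cells, against 1100 CPM in dHet and 1082 CPM in WT other neurons. That was 1.39-fold (1.24 to 1.57) in dHet and 1.62-fold (1.36 to 1.90) in WT. The remaining neuron clusters spanned 880 to 1263 CPM in dHet and 804 to 1243 CPM in WT. In the Npy and Agrp cluster, Sc5d had 135 CPM in dHet and 124 CPM in WT against 57.8 CPM in dHet and 60.2 CPM in WT other neurons, and Fdft1 had 140 CPM in dHet and 101 CPM in WT against 68.4 CPM in dHet and 64.0 CPM in WT. Msmo1 had 135 CPM in the double heterozygote and 304 CPM in wild type against 106 CPM in dHet and 104 CPM in WT. Hmgcs1 had 126 CPM in dHet and 248 CPM in WT against 103 CPM in dHet and 94.96 CPM in WT, so the size of these 2 depended on the library. Its cells were deep, with medians of 4563 UMIs in dHet and 4128 UMIs in WT. Its stress list was 2405 CPM in dHet and 5998 CPM in WT against 1576 CPM in dHet and 2403 CPM in WT, and the part of neither was tested.

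In microglia or macrophages, where the 27 genes had 25 UMIs in 45 dHet cells and 54 UMIs in 105 WT cells, no member was at least 2-fold higher in both libraries, against 6.90% of all genes. Lower by at least 2-fold in both were 13 members, against 35.6%, namely Acat2, Hmgcs1, Mvk, Pmvk, Mvd, Fdps, Fdft1, Sqle, Lss, Cyp51, Tm7sf2, Msmo1 and Srebf1. Hmgcs1 had 3 UMIs in the double heterozygote and 1 in wild type, and Msmo1 had 1 in dHet and 2 in WT, so single genes are hardly placed at this depth. The median log2 ratio was -2.50 in dHet and -2.06 in WT, against -1.66 in dHet and -0.79 in WT over all genes. In fibroblasts, 0 members were at least 2-fold higher in both (6.48% of all genes) and 2 lower, Fdft1 and Msmo1 (24.2%), with a median log2 ratio of -0.29 in dHet and -0.85 in WT against -0.49 in each library over all genes. Fdft1 had 3 UMIs in double heterozygote and 0 in wild type fibroblasts, and Msmo1 had 45.2 CPM in dHet and 37.9 CPM in WT, 0.37-fold in dHet and 0.33-fold in WT relative to the other cells. In pars tuberalis cells, a thin endocrine sheet under the median eminence, Scap was higher than in any other of the 9 better-counted classes in both libraries, with 58.3 CPM (4 UMIs) in dHet and 83.3 CPM (13 UMIs) in WT, or 2.14-fold in dHet and 2.32-fold in WT. Among these 9, the highest class was the same in both libraries for 13 members, and it was the oligodendrocyte for 9 of them. How often this holds over all genes was not measured, so these counts are a description only.

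Between genotypes, the 27 genes together stood at 1230 CPM (3508 UMIs) in the double heterozygote and 1207 CPM (5129 UMIs) in wild type over all cells, a ratio of 1.02 (0.977 to 1.06). None of the 27 passed 2-fold, against 14.0% of all 16547 genes with at least 20 UMIs. Of the 27, 16 were above and 11 below a ratio of 1, a description only, as the split of all genes is not set beside it. The mevalonate arm was at 429 CPM in dHet against 387 CPM in WT, 1.11-fold (1.03 to 1.19), and the sterol arm at 511 CPM in dHet against 479 CPM in WT, 1.07-fold (1.0 to 1.14). The control genes were at 251 CPM in dHet against 285 CPM in WT, 0.88-fold (0.80 to 0.97). The lowest members were Soat1, with 21.05 CPM in the double heterozygote and 41.6 CPM in wild type (0.505-fold, 0.371 to 0.681), Lbr with 9.82 CPM in dHet and 16.5 CPM in WT (0.596-fold, 0.370 to 0.937) and Srebf1 with 44.2 CPM in dHet and 60.2 CPM in WT (0.734-fold, 0.588 to 0.912). Tanycytes were 9.93% of double heterozygote and 15.1% of wild type cells and neurons 48.0% in dHet and 34.5% in WT, and the part of cell composition in these ratios was not tested. The highest with over 100 UMIs in each library was Cyp51, with 78.9 CPM in dHet and 59.8 CPM in WT (1.32-fold, 1.1 to 1.59). No such limit was set for the lowest members, so the ends of this ranking were not chosen alike.

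Within oligodendrocytes the summed level of the double heterozygote over wild type was 1.24-fold (1.11 to 1.40), with the mevalonate arm at 1.32-fold (1.09 to 1.59), the sterol arm at 1.28-fold (1.08 to 1.5) and the control genes at 0.99-fold (0.70 to 1.38). Msmo1 had 391 CPM in double heterozygote and 230 CPM in wild type oligodendrocytes, 1.70-fold (1.23 to 2.33), and Hmgcs1 had 519 CPM in dHet and 433 CPM in WT, 1.2-fold (0.92 to 1.55). Of the 21 members with at least 20 UMIs there, 17 were above a ratio of 1 and 4 below, a description only, as the split of all genes is not set beside it. Past 2-fold were 3 members, against 14.9% of all genes. Those 3 were Sqle with 17 UMIs in dHet and 20 UMIs in WT (2.22-fold, 1.09 to 4.46), Mvk with 11 UMIs in dHet and 12 UMIs in WT (2.40-fold, 0.96 to 5.93), and in the other direction Scap with 3 UMIs in dHet and 21 UMIs in WT (0.37-fold, 0.07 to 1.25). The share past 2-fold was thus close to that of all genes, and all of the 3 rested on few UMIs. The median log2 ratio was 0.26 for the members and -0.07 for all genes. The stress list was at 4045 CPM in double heterozygote and 7215 CPM in wild type oligodendrocytes, and its part in the members' difference was not tested.

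In tanycytes the summed ratio was 1.04 (0.89 to 1.21), a log2 ratio of 0.06 that was -0.35 when each library was clustered alone and 50 double heterozygote and 427 wild type cells were named tanycytes. There 1 of 15 members passed 2-fold, Hsd17b7 with 2 UMIs in the double heterozygote and 18 in wild type, against 16.7% of all genes. Srebf1 had 271 CPM in dHet and 194 CPM in WT (1.39-fold, 0.97 to 1.97) and Soat1 79.0 CPM in dHet and 127 CPM in WT (0.62-fold, 0.32 to 1.11), so neither could be told from an equal level by counting error alone. In ependymal cells the summed ratio was 1.17 (0.98 to 1.39) and 0 of 9 members passed, against 12.9%. Hmgcs1 there had 182 CPM (27 UMIs) in the double heterozygote and 103 CPM (30 UMIs, 8 of them in 1 cell) in wild type, 1.77-fold (1.01 to 3.08). In neurons the ratio was 1.03 (0.97 to 1.1), the narrowest interval of any class, and 1 of 26 members passed, Lbr with 9 UMIs in dHet and 20 UMIs in WT (0.46-fold, 0.18 to 1.05), against 11.7%. Insig2 was at 132 CPM in both libraries. Cyp51 had 77.0 CPM in double heterozygote and 59.5 CPM in wild type neurons (1.29-fold, 1.01 to 1.67), and Srebf2 23.0 CPM in dHet and 34.7 CPM in WT (0.66-fold, 0.44 to 0.99). In fibroblasts the summed ratio was 1.49 (1.16 to 1.90), from 140 UMIs in dHet and 131 UMIs in WT, with the mevalonate arm at 392 CPM in dHet against 233 CPM in WT and the sterol arm at 354 CPM in dHet against 179 CPM in WT. Only 3 members had 20 UMIs there and 0 passed 2-fold, against 16.2%, and the stress list was at 12708 CPM in the double heterozygote and 17776 CPM in wild type.

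**Figure D5:**
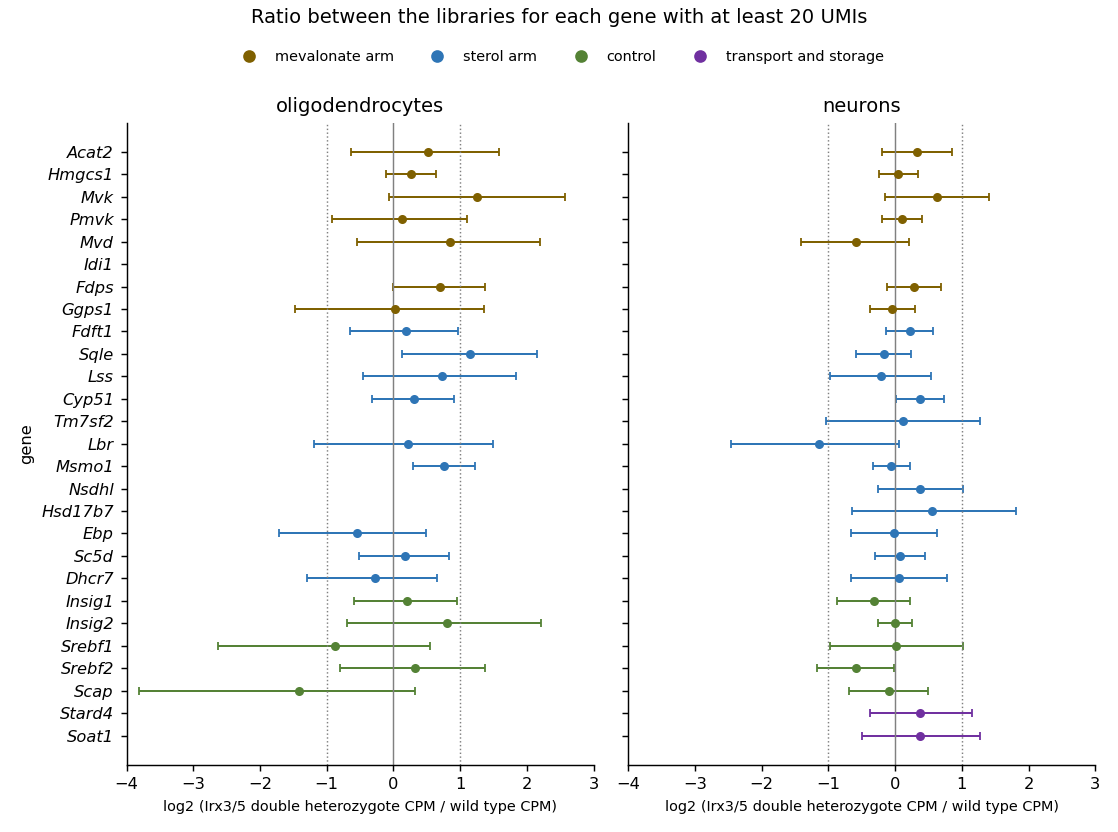
Log2 ratio of double heterozygote over wild type (horizontal axis) for the members with at least 20 UMIs in oligodendrocytes (21 genes) and neurons (26 genes), with exact 95% intervals for counting error and dotted lines at 2-fold. In oligodendrocytes 17 of 21 points lie above 0, with Mvk and Sqle past 2-fold, and in neurons only Lbr lies past 2-fold. The split of all genes around 0 is not shown, so the 17 of 21 is a description only.

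Neighbouring pathways gave a setting for these levels. Fatty acid synthesis genes, the usual targets of Srebf1, summed to 4605 CPM in double heterozygote and 4877 CPM in wild type oligodendrocytes, 6.79-fold (6.24 to 7.38) in dHet and 5.94-fold (5.62 to 6.28) in WT relative to the other cells, in a class where Srebf1 itself was at 0.65-fold in dHet and 0.88-fold in WT. Of 10 measured genes, 6 were at least 2-fold higher in both libraries, against 6.42% of all genes, and 0 lower, against 33.9%. The desaturases Scd1 and Scd2 were at 14.99-fold and 9.60-fold in the double heterozygote and at 9.91-fold and 8.12-fold in wild type, and the elongase Elovl6 at 6.64-fold in dHet and 3.87-fold in WT. The lowest were the desaturase Fads1 at 0.87-fold in dHet and 0.39-fold in WT, Acly, which supplies acetyl-CoA, at 1.03-fold in dHet and 1.2-fold in WT, and malic enzyme Me1 at 2.47-fold in dHet and 1.30-fold in WT. In tanycytes, where Srebf1 was high, the fatty acid list stood at 1828 CPM in the double heterozygote and 1279 CPM in wild type. The double heterozygote over wild type was thus 1.43-fold (1.25 to 1.63). Over all cells the list stood at 914 CPM in dHet and 1248 CPM in WT. No gene was at least 2-fold higher in tanycytes than in other cells in both libraries, against 6.08% of all genes. Elovl6 was the 1 lower, against 15.5%. The part of Srebf1 in the levels of this list was not tested. The sterol handling list (lysosomal exit, efflux and hydroxylation) summed to 1932 CPM in dHet and 1729 CPM in WT oligodendrocytes, 3.01-fold in dHet and 2.6-fold in WT relative to the other cells. Of 13 genes measured, 4 were at least 2-fold higher in both libraries (Npc1, Npc2, Lipa and Osbpl1a), against 6.42% of all genes. Another 4 were at least 2-fold lower in both (Abca1, Mylip, Cyp46a1 and Lrp1), against 33.9%, so the lower share was close to that of all genes. Npc1 and Npc2, which move cholesterol out of lysosomes, were at 7.37-fold and 4.39-fold in the double heterozygote and at 7.43-fold and 3.27-fold in wild type, and the oxysterol-binding Osbpl1a was at 7.48-fold in dHet and 6.90-fold in WT. Mylip, Lrp1 and the efflux pump Abca1 had at most 2 UMIs in either library's oligodendrocytes. Microglia or macrophages had the list at 2569 CPM in dHet and 2249 CPM in WT, 3.74-fold in dHet and 3.04-fold in WT relative to the other cells, with 5 genes at least 2-fold higher in both libraries (Npc2, Lipa, Abca1, Mylip and Gramd1a), against 6.90% of all genes. Osbp, Osbpl1a and Cyp46a1 were the 3 at least 2-fold lower, against 35.6%. In neurons it was 0.48-fold in each library, and Cyp46a1, which makes the hydroxylated form in which neurons shed cholesterol, was the 1 gene at least 2-fold higher in both libraries, against 12.8% of all genes. Lower by at least 2-fold there were 7, against 17.3%, namely Npc1, Npc2, Abca1, Nr1h2, Mylip, Osbpl1a and Lrp1. The list of proteins that cut SREBP or turn over the INSIG and sterol-sensing proteins stood at 344 CPM in dHet and 445 CPM in WT oligodendrocytes, 0.81-fold (0.61 to 1.05) in dHet and 0.98-fold (0.84 to 1.13) in WT. Of its 11 genes, 0 were at least 2-fold higher in both libraries, against 6.42% of all genes. Erlin1 and Sec24d were the 2 at least 2-fold lower in both, against 33.9%.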

How the data were processed

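RNA was measured by Drop-seq in sorted live cells of 2 pooled libraries, per the labels' protocols. The deposited table of each library holds raw UMI counts per gene and barcode. Per the submitters' processing notes, the tools were STAR 2.6.0b, Picard, bcl2fastq and Seurat 3, with the mm10 build. Annotation, strand setting and the handling of reads matching several genes were not given in the sources used here. Without a known strand setting, overlapping genes such as Cyp51 and Akap9, Fdft1 and Ctsb, Srebf1 and Rai1, or Tm7sf2 and Vps51 cannot be told apart where they overlap. Only 3' ends were read, so a level counts RNA molecules and is not divided by gene length, and a sum over genes weighs the well-counted genes most. A merged table of normalised values was not used.

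The double heterozygote table held 1800 barcodes with 2974060 UMIs, and the wild type file 2800 barcodes with 4426817 UMIs. A cell needed 300 genes or more and no more than 20% of its UMIs from mitochondrial genes (316 and 395 barcodes removed), and 19 cells called doublets by Scrublet were left out. Both libraries were clustered together with scanpy 1.11.5 and leidenalg 0.10.2 (2000 variable genes, 30 components, 20 neighbours, resolution 1). The variable genes excluded the members, the other lists, Irx3, Irx5, and genes that are mitochondrial, ribosomal, haemoglobin or sex-linked. A cluster was named with at least 3 markers, each in 10% of its cells at over 2 times the median cluster, and 1 cluster (35 and 45 cells) stayed unnamed.

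UMIs were summed per class and library and scaled to CPM. Intervals are exact Poisson for levels, exact conditional binomial for ratios and exact Clopper-Pearson for shares (scipy 1.17.1). The ratios were also run on simulated Poisson counts. These hold no spread between cells or mice, so they check the calculation only. A member counted as past 2-fold needed 20 UMIs over both groups of a comparison, in each library where both were used. Whether cells came from separate mice cannot be told, so the libraries have no replicates. The members and lists were chosen with earlier results of these data known. All 27 members are named. Of other lists, the rule took the 3 highest and 3 lowest genes of a comparison with 20 UMIs, and others named were chosen after their values were seen. RefSeq gave the promoter windows.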

Additional observations from a re-analysis of the deposited data

How the results depend on the processing

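Values here are log2 ratios unless they are counts. The summed level in oligodendrocytes over other cells, 1.18 in the double heterozygote and 0.92 in wild type, kept its direction under every alternative run. It was 1.03 in the double heterozygote as a mean over cells, and 1.01 in the double heterozygote and 0.72 in wild type without Hmgcs1. The cut between tanycytes and ependymal cells was less firm. Tanycytes over other cells in the double heterozygote, at 0.06, were at -0.22 without cells that had more markers of another class, -0.32 with each library clustered alone, -0.29 with cells classed by their own marker score and -0.25 without Srebf1. In wild type, at 0.03, they were at 0.15 as a mean over cells and -0.17 without Srebf1. Tanycytes of the double heterozygote over wild type, at 0.06, were at -0.35 with each library clustered alone and -0.19 by marker score. Ependymal cells of the double heterozygote over wild type, at 0.23, were at 0.52 with each library clustered alone. Over other cells, ependymal cells were at 0.21 and -0.0022, and at -0.0039 in the double heterozygote and -0.20 in wild type without Srebf1, and -0.25 in wild type with each library clustered alone. Neurons over other cells, at -0.28 and -0.21, were at -0.39 and -0.31 without Insig2. With at least 50 UMIs, 0 members passed 2-fold between genotypes in neurons, oligodendrocytes and tanycytes (1, 3 and 1 with 20), and 2 were past 2-fold in neurons over other cells (4 with 20), since fewer genes were counted. The cause of the other shifts was not tested.

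Of the 89 ratios of members over other cells past 2-fold, 1 changed sign, Tm7sf2 in double heterozygote tanycytes, which was 1.11 and became -0.37 with at least 500 genes per cell and -0.16 without cells that had more markers of another class. No paired analysis was possible because the labels give 1 library per genotype, and for the same reason no replicate could be left out. Depth limits single genes: Idi1, Tm7sf2, Lbr and Stard4 had between 15 and 70 UMIs in each library.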
